A study of Mus with 10 samples.

Results

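The genes described here are the keratins of the interfollicular and the activated epidermis, a set of 10 named genes: Krt5, Krt14 and Krt15 of the basal layer, Krt1, Krt10 and Krt2 of the suprabasal layers, and Krt6a, Krt6b, Krt16 and Krt17 of activated epidermis. They were chosen by name and read from the probe set with 1 gene symbol and the highest mean, which gave a value for 9 of the 10, among 22180 genes measured in all. RNA of skin from female BALB/c mice, 7 to 8 weeks old, was hybridised to 10 Affymetrix gene arrays. The groups were 4 arrays labelled PUVA 7D, 4 labelled PUVA 3D and 2 controls. PUVA combines topical psoralen, which crosslinks DNA once it absorbs light, with UVA. By the shared protocol, UVA at 0.25 J/cm2 was given 2 times a week for 2 weeks, and imiquimod, which causes a psoriasis-like dermatitis in mice, followed 7 or 3 days later, with no gap for the controls. The labels do not say whether the skin on these arrays had received imiquimod or whether the control skin had received any light or psoralen, so the groups are called by their labels. The labels do not tie each array to an animal of its own, so every p-value here reflects array-to-array spread that could be technical.

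Keratins are the intermediate filaments of epithelial cells, and each filament is built from an acidic type I and a basic type II chain. Basal keratinocytes make Krt5 with Krt14, and cells that leave the basal layer switch to Krt1 with Krt10. Injury and psoriasis-like inflammation bring out Krt6, Krt16 and Krt17 between the hairs, while the hair follicle holds some of the same keratins at rest, Krt15 in the bulge and Krt6a and Krt17 in the outer root sheath and its companion layer. In whole skin, fewer cells of a type and less RNA per cell cannot be told apart. In the RefSeq table (assembly GRCm38.p6) the type I genes Krt10, Krt14, Krt15, Krt16 and Krt17 lie on chromosome 11, with Krt16 directly between Krt14 and Krt17. The type II genes Krt1, Krt2, Krt5, Krt6a and Krt6b lie on chromosome 15, where Krt6a stands between Krt6b and Krt5.

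Values are the deposited expression values, taken as log2 from their range because no source used here states the log base, and RNA amounts are compared only within a gene. A percentile tells only where a probe set's signal lay on the arrays. Array medians lay between 5.83 and 5.86, and the number of arrays limits the precision. The skin label was met by its defining keratins: Krt10 (mean 12.72), Krt1 (12.42) and Krt14 (12.001) ranked at or above the 99.72nd percentile of all genes. They lay close to the upper end of the arrays, whose highest values ran from 13.37 to 13.46, and how well signals there follow RNA amount was not analysed here. The controls stood apart from each other in hair genes. The mean of 9 inner root sheath markers was 4.52 to 4.70 in PUVA 7D, 4.47 to 4.94 in PUVA 3D, and 5.91 and 8.72 in control replicates 1 and 2. Where leaving out a control turned the sign of a keratin's difference or moved it by over 1.5 times, the value is given beside it or with the processing alternatives. The proliferation markers followed the same order, at 7.33 to 7.57 in PUVA 7D, 7.51 to 7.58 in PUVA 3D, and 7.66 and 8.28 in the controls.

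None of the 9 measured keratins passed an adjusted p of 0.05 in any comparison. In PUVA 7D against PUVA 3D, 0 of 9 passed in limma, beside 0.00902% of all genes, and 1 of 9 (Krt6b) had an unadjusted p under 0.05, beside 9.77%. In PUVA 7D against control, 0 of 9 passed, beside 0% of all genes, and 1 of 9 (Krt2) had an unadjusted p under 0.05, beside 5.89%. In PUVA 3D against control, 0 of 9 passed, beside 0.00451% of all genes, and 2 of 9 (Krt6b and Krt2) had an unadjusted p under 0.05, beside 9.74%. The median log2 difference of the 9 was 0.11, -0.052 and -0.097 in these comparisons, and that of all genes 0.0095, 0.015 and 0.0023. Both comparisons with control use the same 2 control arrays. Keratins whose arrays separated the groups without overlap were counted beside the share of all genes. Between PUVA 7D and PUVA 3D there were 0 of 9, beside 5.23% of all genes (2.95% higher and 2.28% lower in PUVA 7D). For PUVA 7D against control there was 1 of 9 (Krt17, lower), beside 14.4% of all genes, of which 5.85% lay lower and 8.56% higher. For PUVA 3D against control there were 2 of 9 (Krt14 and Krt2, both lower), beside 17.4% of all genes, of which 7.89% lay lower and 9.52% higher.

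**Figure D1:**
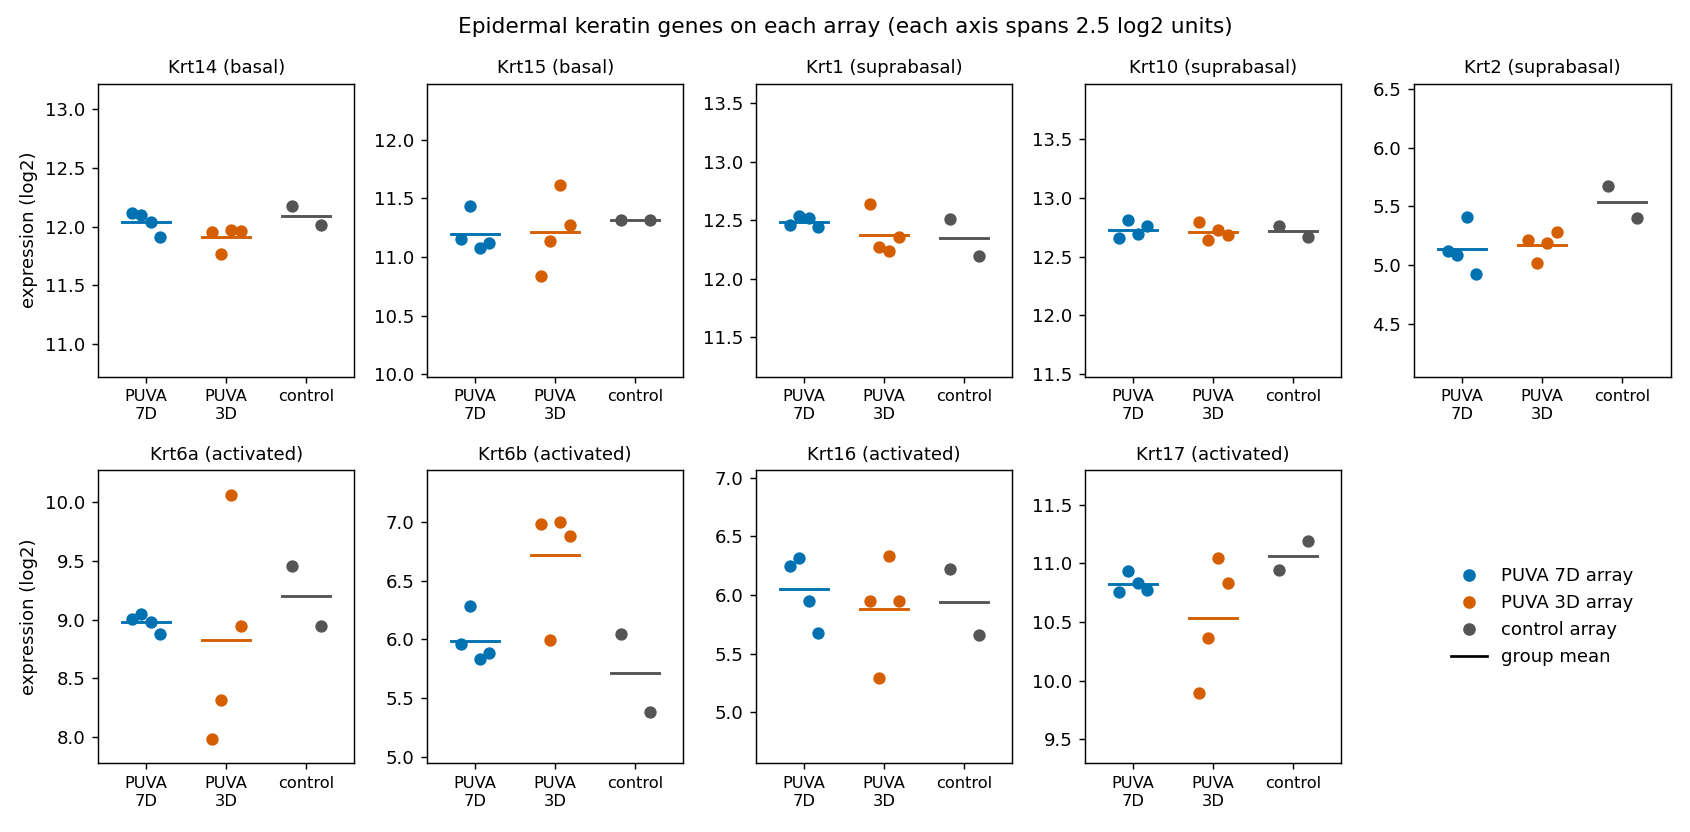
Expression (log2, vertical axes of equal length) of the 9 measured keratins on each array, with PUVA 7D, PUVA 3D and control from left to right. Points are arrays and lines are group means. The PUVA 3D arrays span 7.99 to 10.06 in Krt6a, while the PUVA 7D arrays lie between 8.88 and 9.04.

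Krt14, the type I chain of basal keratinocytes, had log2 values of 12.12, 12.10, 12.04 and 11.91 in PUVA 7D skin. It had 11.96, 11.76, 11.97 and 11.96 in PUVA 3D skin, and 12.18 and 12.01 in control skin. All PUVA 3D arrays lay below both controls, while PUVA 7D arrays overlapped with both other groups. The log2 difference of PUVA 3D from control was -0.18 ± 0.10 (SE), with an adjusted p of 0.582 in limma. That of PUVA 7D from control was -0.052 ± 0.095, with an adjusted p of 0.975. Between the gaps, PUVA 7D minus PUVA 3D was 0.13 ± 0.08, with an adjusted p of 0.619. Without control replicate 1 the difference of PUVA 3D from control was -0.10, and that of PUVA 7D was 0.029, with the sign turned. Without control replicate 2 that of PUVA 7D was -0.13. Without PUVA 3D replicate 2 the difference between the PUVA groups was 0.080.

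Krt15, a type I keratin of basal cells and of the hair follicle bulge, had 11.16, 11.44, 11.07 and 11.12 in PUVA 7D skin. PUVA 3D skin had 10.84, 11.13, 11.62 and 11.27, and both controls had 11.31. The PUVA 3D arrays reached below and above every other array, and the control values lay inside the range of both PUVA groups. The log2 difference from control was -0.12 ± 0.18 (SE) for PUVA 7D and -0.097 ± 0.180 for PUVA 3D. For PUVA 7D it was -0.20 without PUVA 7D replicate 2 and -0.075 without PUVA 7D replicate 3. The log2 difference between the gaps was -0.019, with an unadjusted 95% interval of -0.34 to 0.31. Krt5, the type II partner of Krt14, was not measured on its own, because the probe set that names it also names its neighbour Krt6a. That shared probe set ranged from 12.23 to 12.49 over all 10 arrays and cannot be read as either gene. The second shared probe set, which names Krt6b and Gm5478, ranged from 4.27 to 4.69 and was not used in any test.

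Krt1, the type II chain of differentiating cells, had 12.46, 12.53, 12.52 and 12.44 in PUVA 7D skin. PUVA 3D skin had 12.64, 12.27, 12.24 and 12.36, and the controls had 12.51 and 12.19. The highest and the second lowest of the 10 arrays were both PUVA 3D arrays, and no pair of groups was separate. The log2 difference of PUVA 7D was 0.11 ± 0.10 from PUVA 3D and 0.14 ± 0.12 from control, and that of PUVA 3D from control was 0.024 ± 0.123 (SE). The difference between the PUVA groups was 0.065 without PUVA 3D replicate 3 and 0.20 without PUVA 3D replicate 1. From control, PUVA 7D differed by -0.022 and PUVA 3D by -0.13 without control replicate 2, and by 0.29 and 0.18 without control replicate 1. Krt10, its type I partner, varied least, between 12.64 and 12.81 over all arrays. Its mean was 12.73 ± 0.07 in PUVA 7D skin (SD, n = 4), 12.71 ± 0.06 in PUVA 3D skin (SD, n = 4) and 12.71 ± 0.06 in control skin (SD, n = 2). The unadjusted 95% interval of its log2 difference between the gaps ran from -0.13 to 0.16. Against control it ran from -0.16 to 0.19 for PUVA 7D and from -0.18 to 0.18 for PUVA 3D, so that differences of about that size could not be told from 0 here.

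Krt2, a type II keratin of late differentiation that in mice is made mainly in ear, tail and sole epidermis, was dim, at the 34.87th percentile of all genes. It had 5.12, 5.09, 5.41 and 4.92 in PUVA 7D skin, against 5.67 and 5.40 in control skin. PUVA 3D skin had 5.21, 5.02, 5.19 and 5.28. All PUVA 3D arrays and 3 of the 4 PUVA 7D arrays lay below both controls. The log2 difference from control was -0.40 ± 0.14 for PUVA 7D (SE, adjusted p = 0.763 in limma) and -0.37 ± 0.14 for PUVA 3D (adjusted p = 0.449). Without control replicate 1 these were -0.27 and -0.23, and without control replicate 2 they were -0.54 and -0.50. Between the PUVA groups, the 7D minus 3D difference was -0.037 ± 0.111.

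Krt6b, a type II keratin induced in activated epidermis, differed most among the 9 in both comparisons that involve PUVA 3D. It had 5.96, 6.28, 5.83 and 5.89 in PUVA 7D skin, 6.98, 5.999, 7.01 and 6.88 in PUVA 3D skin, and 6.05 and 5.38 in control skin. Of the PUVA 3D arrays, 3 lay above every other array, while PUVA 3D replicate 2 fell among the PUVA 7D and control arrays. PUVA 7D minus PUVA 3D was -0.73 ± 0.23 on the log2 scale (SE), a fold of 0.605 with an unadjusted p of 0.00936 and an adjusted p of 0.377 in limma. PUVA 3D minus control was 1.004 ± 0.280, a fold of 2.01 with an unadjusted p of 0.00459 and an adjusted p of 0.319. PUVA 7D minus control was 0.28 ± 0.28. The difference of PUVA 3D from control was 0.67 without control replicate 2 and 1.34 without control replicate 1. For PUVA 7D it was -0.055 and 0.61, so its sign rested on control replicate 2. The probe set shared by Krt6b and Gm5478 showed no rise in PUVA 3D. It had 4.41, 4.37, 4.27 and 4.33 there, 4.47, 4.50, 4.38 and 4.69 in PUVA 7D, and 4.61 and 4.35 in control skin. These values lay near the lower quartiles of the arrays (4.17 to 4.23) and cannot be read as Krt6b alone.

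Krt6a is the neighbouring and closely related type II gene. It had 9.002, 9.04, 8.98 and 8.88 in PUVA 7D skin. PUVA 3D skin had 7.99, 8.31, 10.06 and 8.94, and control skin had 9.46 and 8.95. The PUVA 3D arrays held both the 2 lowest values and the highest value of all 10 arrays, and they surrounded the other groups. Between the PUVA groups, the 7D minus 3D difference was 0.15 ± 0.36 (SE), with an unadjusted 95% interval of -0.64 to 0.94 and an adjusted p of 0.919 in limma. Without PUVA 3D replicate 3 the difference was 0.56, and without PUVA 3D replicate 1 it was -0.13. PUVA 3D minus control was -0.38 ± 0.44 and -0.79 without PUVA 3D replicate 3 and -0.097 without PUVA 3D replicate 1. It was -0.63 without control replicate 2 and -0.12 without control replicate 1. PUVA 7D minus control was -0.23 ± 0.44, and 0.027 without control replicate 1. The log2 value of Krt6b minus that of Krt6a was -3.15 to -2.76 on PUVA 7D arrays, -3.05 to -1.004 on PUVA 3D arrays, and -3.41 and -3.57 on control arrays. All 8 PUVA arrays thus lay above both controls in this difference, a measure chosen after the values were seen and not tested. How far the probes of these related genes take up each other's RNA was not analysed here.

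Krt16, the type I chain that pairs with Krt6 in activated epidermis, was dim, at the 43.93rd percentile. It had 6.25, 6.32, 5.95 and 5.68 in PUVA 7D skin, 5.95, 5.29, 6.34 and 5.95 in PUVA 3D skin, and 6.22 and 5.66 in control skin. The groups overlapped throughout. PUVA 7D minus PUVA 3D was 0.17 ± 0.22 (SE), PUVA 7D minus control 0.11 ± 0.27 and PUVA 3D minus control -0.058 ± 0.273, with adjusted p of 0.835, 0.978 and 0.968 in limma. The sign of each turned with an array left out: the difference between the gaps was -0.027 without PUVA 3D replicate 2. Against control, that of PUVA 7D was -0.17 without control replicate 2, and that of PUVA 3D was 0.22 without control replicate 1 and 0.14 without PUVA 3D replicate 2.

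Krt17, a type I keratin of the outer root sheath and of activated epidermis, had 10.76, 10.94, 10.83 and 10.77 in PUVA 7D skin. PUVA 3D skin had 9.90, 10.37, 11.05 and 10.83, and control skin had 10.94 and 11.19. The PUVA 7D arrays lay close together just below both controls, and PUVA 3D replicates 1 and 2 lay below all other arrays. PUVA 3D minus control was -0.53 ± 0.25 (SE), with an adjusted p of 0.532 in limma, and it was -0.32 without PUVA 3D replicate 1 and -0.41 without control replicate 2. PUVA 7D minus control was -0.24 ± 0.25, with an adjusted p of 0.963, and it was -0.12 without control replicate 2 and -0.37 without control replicate 1. Between the PUVA groups, the 7D minus 3D difference was 0.29 ± 0.21, with an adjusted p of 0.675, and it was 0.076 without PUVA 3D replicate 1 and 0.46 without PUVA 3D replicate 3.

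**Figure D2:**
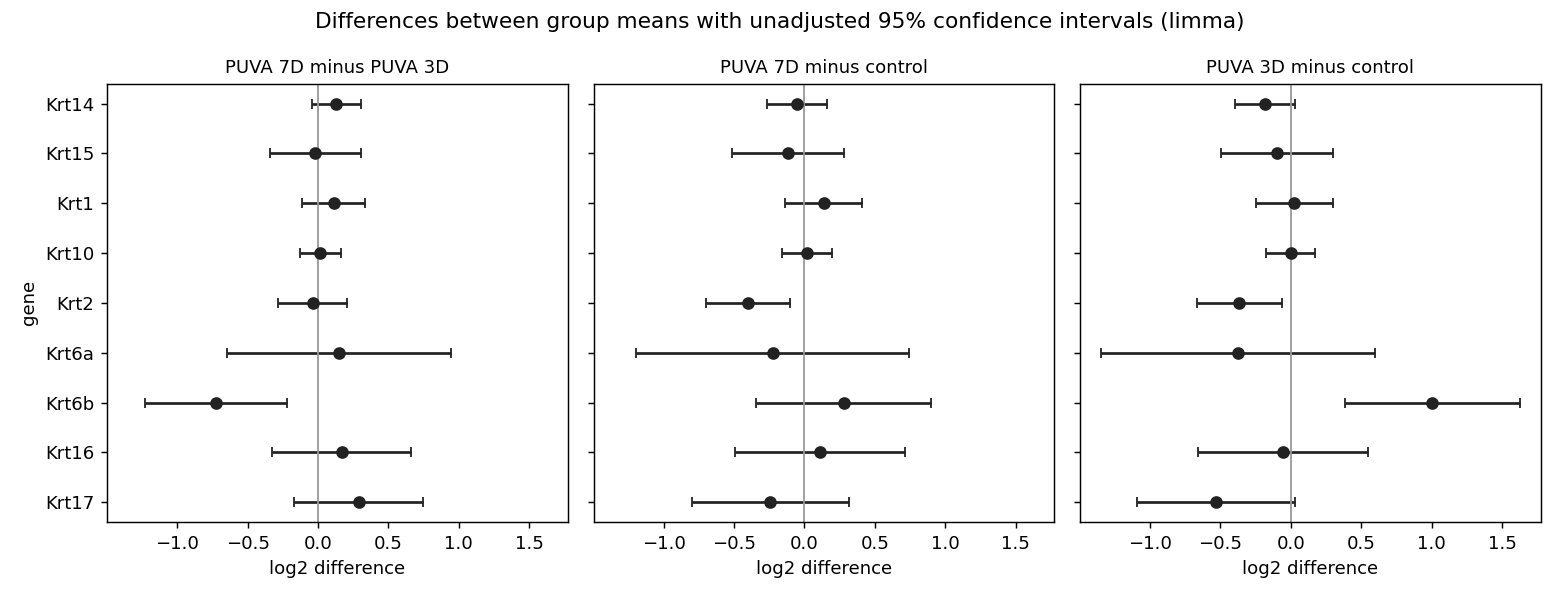
Log2 differences between group means (horizontal axis) of the 9 measured keratins, for PUVA 7D minus PUVA 3D, PUVA 7D minus control and PUVA 3D minus control, from limma. Bars are unadjusted 95% confidence intervals. The interval lies off 0 for Krt6b in PUVA 7D minus PUVA 3D and in PUVA 3D minus control, and for Krt2 in both differences from control, and no gene passed after adjustment over all genes.

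Krt6a and Krt17 had far wider values in PUVA 3D than in PUVA 7D skin. The SD of Krt6a was 0.0701 over the 4 PUVA 7D arrays and 0.914 over the 4 PUVA 3D arrays. Its highest PUVA 3D array was 4.21-fold above the lowest, against 1.12-fold in PUVA 7D skin. The SD of Krt17 was 0.0806 in PUVA 7D skin and 0.512 in PUVA 3D skin, and that of Krt6b was 0.202 and 0.482. Krt1 had SDs of 0.0464 in PUVA 7D skin and 0.180 in PUVA 3D skin. These 4 of 9 keratins had an SD more than 2 times as large in PUVA 3D as in PUVA 7D, which held for 19.1% of all genes. In 7 of 9 the PUVA 3D arrays had the larger SD, beside 55.9% of all genes. For all genes the median SD was 0.123 in PUVA 7D and 0.134 in PUVA 3D skin. The spread is a description of 4 arrays in each group, with no test. Without PUVA 3D replicate 3 the PUVA 3D SD of Krt6a was 0.486, without replicate 1 that of Krt17 was 0.348 and that of Krt1 was 0.0633, and without replicate 2 that of Krt6b was 0.0670.

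**Figure D3:**
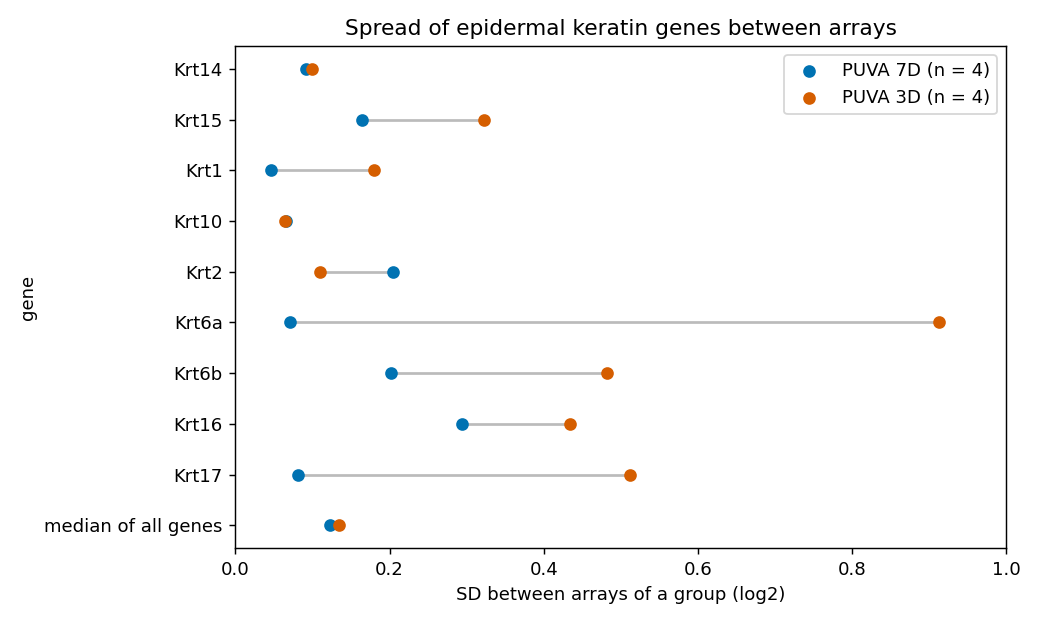
Standard deviation between the 4 arrays of a group (log2, horizontal axis) for each measured keratin and, at the bottom, the median over all genes, in PUVA 7D (blue) and PUVA 3D (orange). Krt6a lies at 0.0701 in PUVA 7D and at 0.914 in PUVA 3D.

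Among the PUVA 3D arrays, replicate 3 was the highest in 6 of 9 keratins, and replicate 1 was the lowest in Krt6a, Krt15 and Krt17. Replicate 2 was the lowest in 5 keratins. No share of all genes was computed beside these counts, so they cannot be read as particular to keratins. On the PUVA 3D arrays, the marker lists of outer root sheath, sebocytes and melanocytes ran in the same order as Krt6a, Krt15 and Krt17, and others did not. The mean of 5 outer root sheath markers other than Krt17 was 9.27 to 9.63 in PUVA 7D skin and 9.50 and 9.97 in the controls. On PUVA 3D replicates 1 to 4 it was 8.70, 9.17, 9.66 and 9.43, in the same order of arrays as Krt6a, Krt15 and Krt17. The mean of 7 sebocyte markers was 9.02 to 9.16 in PUVA 7D skin and 9.38 and 9.09 in the controls, and on PUVA 3D replicates 1 to 4 it was 8.40, 8.72, 9.19 and 8.95. The mean of 6 melanocyte markers was 5.73 to 5.94 in PUVA 7D skin and 6.11 and 7.59 in the controls. On PUVA 3D replicates 1 to 4 it was 5.64, 5.87, 6.56 and 6.10. Inner root sheath markers (4.47, 4.62, 4.94 and 4.55) and hair shaft markers (5.37, 5.28, 5.57 and 5.34) did not keep that order. Within the outer root sheath list Krt75 did not keep it, while Krt79, Sox9, Lgr5 and Lhx2 did. Of the sebocyte genes, Mgst1, Awat1 and Elovl3 kept it, while Scd1, Awat2, Plin5 and Pparg did not. In PUVA 7D skin, neither Krt6a, Krt15 nor Krt17 followed the order of the outer root sheath mean. From control replicate 1 to 2 that mean and Krt17 rose, while Krt6a fell. The part of the follicle, gland and melanocyte content of the samples in the keratin values was not tested.

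**Figure D4:**
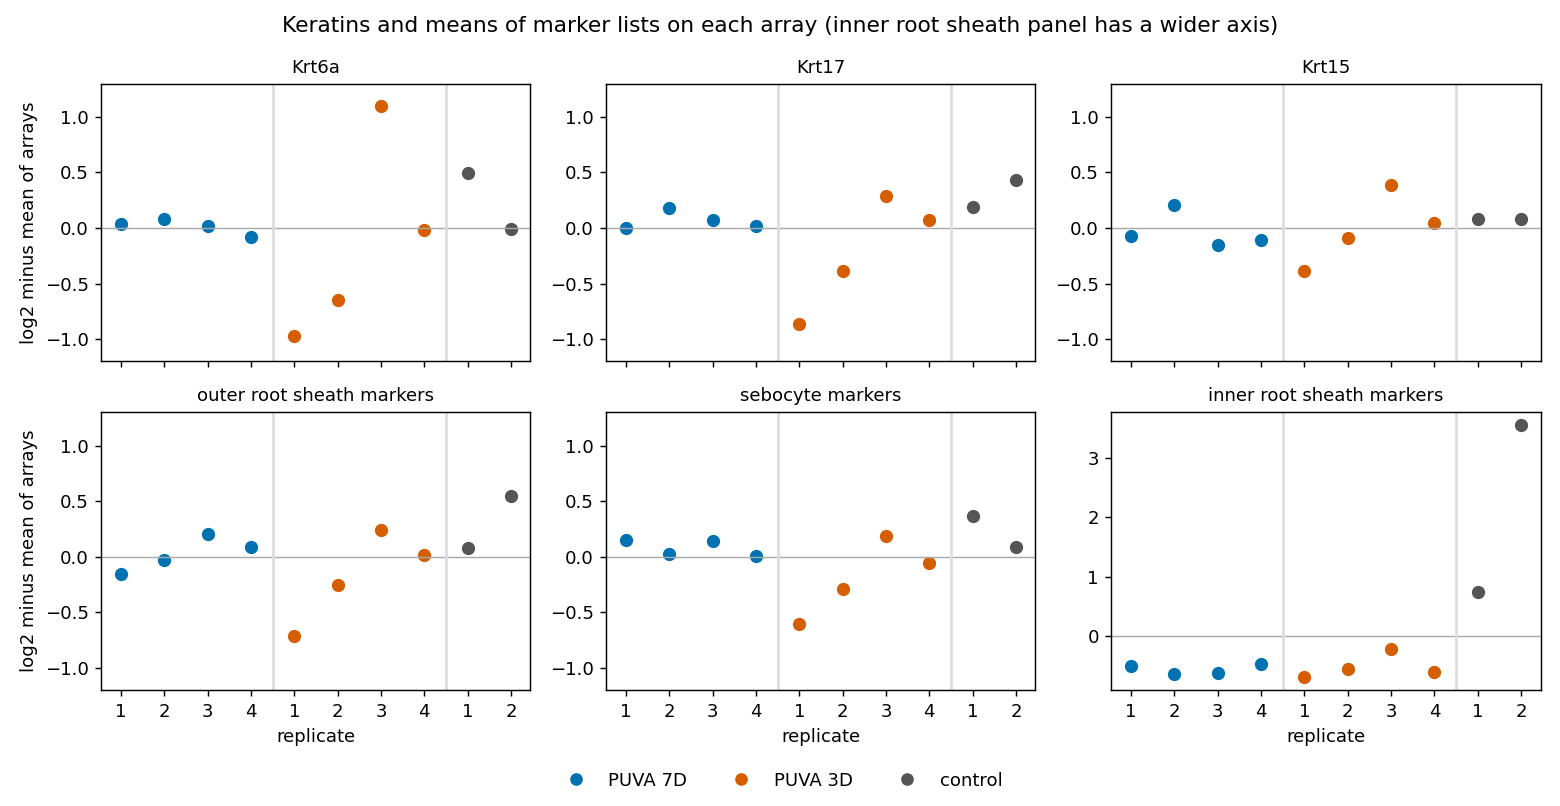
Krt6a, Krt17, Krt15 and the mean of 5 outer root sheath, 7 sebocyte and 9 inner root sheath markers on each array, as log2 values minus the mean of all 10 arrays (vertical axis). Replicates run along the horizontal axis, with PUVA 7D, PUVA 3D and control from left to right. PUVA 3D replicate 1 is lowest and replicate 3 highest of the PUVA 3D arrays in all 6 panels, and control replicate 2 stands apart in the inner root sheath panel.

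Partner chains were compared over the 10 arrays, for 3 of the 4 pairs, since Krt5 had no value of its own. Krt1 and Krt10 correlated at r = 0.64 (permutation p = 0.0523, adjusted over the 3 pairs p = 0.0901) and rho = 0.66 (p = 0.0452, adjusted p = 0.0678). Without the 2 arrays farthest from the median of Krt1, r was 0.75. Krt6a and Krt16 correlated at r = 0.61 (permutation p = 0.0600, adjusted p = 0.0901) and rho = 0.84 (p = 0.00383, adjusted p = 0.0115). Without PUVA 3D replicates 3 and 1, the arrays farthest from the median of Krt6a, r was 0.81. For Krt6b and Krt17, r was -0.38 (permutation p = 0.273, adjusted p = 0.273) and rho -0.13 (p = 0.733, adjusted p = 0.733), and r was -0.26 without the same 2 arrays. On deviations from the group means, r was 0.65 for Krt1 with Krt10, 0.63 for Krt6a with Krt16 and 0.11 for Krt6b with Krt17. Over all 10 arrays, of the 3 pairs only the rank correlation of Krt6a with Krt16 passed the adjusted threshold. Without the 2 farthest arrays, r passed it for Krt1 with Krt10 (exact permutation, adjusted p = 0.0448) and for Krt6a with Krt16 (adjusted p = 0.0219). No relation was detected between Krt6b and Krt17.

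Other genes were ranked by how closely their values followed those of each keratin group over the 10 arrays. The named keratins were left out beforehand, as were predicted genes, short RNAs and receptors of smell. The absence of the named keratins below is thus set by the rule and is not a result. Of the genes left, the rule took the 3 highest Pearson correlations with the mean of the group's centred values. The genes are given as a description, with no test. Over 10 arrays, the highest of so many correlations can be high by chance. The centred values were not scaled, so the keratins with the widest values weighed most. Over all arrays the range was 2.07 for Krt6a, and 0.75 for the dim Krt2 against 0.17 for Krt10. For the basal keratins Krt14 and Krt15 they were Psmd8 (r = 0.96), Otop1 (0.95) and Hadha (0.93). For the suprabasal keratins they were Acad8 (0.92), Myom3 (0.88) and Mif4gd (0.87). For the activated keratins they were Lztr1 (0.97), Hadha (0.96) and Dkk3 (0.95). Dkk3, a secreted protein of the Dickkopf family, had 8.12 to 8.34 in PUVA 7D skin, 7.76, 7.76, 8.80 and 8.34 on PUVA 3D replicates 1 to 4, and 8.28 and 8.14 in the controls.

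Of 19 other soft epithelial keratins, 0 passed in any comparison in limma, and at an unadjusted p under 0.05 there were 4 between the gaps (9.77% of all genes), 2 in PUVA 7D against control (5.89%) and 2 in PUVA 3D against control (9.74%). Their median log2 difference was 0.11 between PUVA 7D and PUVA 3D, 0.056 between PUVA 7D and control and -0.037 between PUVA 3D and control. Krt75, the type II keratin of the companion layer of the hair follicle, had 9.02, 8.92, 8.92 and 8.60 in PUVA 7D skin, 7.71, 8.31, 8.02 and 8.65 in PUVA 3D skin, and 8.97 and 9.53 in control skin. All PUVA 3D arrays lay below both controls. PUVA 7D minus PUVA 3D was 0.69 ± 0.20 (SE, adjusted p = 0.329), and PUVA 3D minus control was -1.08 ± 0.24 (adjusted p = 0.223), or -0.80 without control replicate 2. Krt13, a type I keratin of stratified mucosa, had a log2 difference of 0.30 ± 0.08 between PUVA 7D and PUVA 3D (adjusted p = 0.276) and of 0.34 ± 0.09 between PUVA 7D and control (adjusted p = 0.748). Its 10 values, between 3.79 and 4.31, lay near the lower quartiles of the arrays (4.17 to 4.23). Krt19, a type I keratin of simple and follicle epithelium, had log2 differences from control of 0.27 ± 0.10 in PUVA 7D and 0.26 ± 0.10 in PUVA 3D.

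The list of keratin filament partners had 20 measured genes, of which 0 passed in any comparison. They code for desmosomal plaque proteins and cadherins, plakins, filaggrins, cornified envelope proteins and transglutaminases. Between PUVA 7D and PUVA 3D, 19 of 20 had a log2 difference above 0, with a median of 0.15, while the share of all genes below 0 was 46.8%. An unadjusted p under 0.05 was found for 4 of 20, beside 9.77% of all genes. In the same comparison, basal keratinocyte markers other than the keratins lay above 0 in 4 of 4 (median 0.12) and suprabasal ones in 5 of 5 (median 0.25). Of the suprabasal ones, Flg, Lor, Ivl and Tgm3 are also among the 20 filament partners, so the 2 counts are not separate. Fibroblast markers lay below 0 in 6 of 6 (median -0.55), with mean levels of 10.91 to 11.38 in PUVA 7D and 11.36 to 11.99 in PUVA 3D skin. Macrophage and dendritic cell markers lay below 0 in 6 of 6 (median -0.23), with mean levels of 8.80 to 9.07 in PUVA 7D and 8.93 to 9.42 in PUVA 3D skin. Of other lists, skeletal muscle markers lay above 0 in 6 of 6 (median 0.10), adipocyte markers in 4 of 4 (0.10) and T cell markers in 4 of 5 (0.14). Endothelial markers lay below 0 in 4 of 4 (median -0.054), and neutrophil (-0.21) and melanocyte markers (-0.24) in 4 of 6 each. The part of cell type content in the values of the filament partners was not tested. In PUVA 7D against control 15 of 20 lay above 0, with a median of 0.050, and 45% of all genes lay below 0. In PUVA 3D against control 16 of 20 lay below 0, with a median of -0.12, while the share of all genes below 0 was 49.4%. At an unadjusted p under 0.05 there were 0 in either comparison with control. Ivl, the gene of the cornified envelope protein involucrin, had 9.71, 9.83, 9.74 and 9.73 in PUVA 7D skin and 9.48, 9.08, 9.34 and 9.43 in PUVA 3D skin, with no overlap between them, against 9.86 and 9.40 in control skin. Between the PUVA groups, the 7D minus 3D difference was 0.42 ± 0.11 (SE, adjusted p = 0.311) for Ivl and 0.25 ± 0.09 (adjusted p = 0.448) for Flg2, a filaggrin family gene. PUVA 3D minus control was -0.30 ± 0.14 for Ivl, and -0.53 without control replicate 2 but -0.062 without control replicate 1. For Dsg1b, a desmosomal cadherin, it was -0.32 ± 0.17, and -0.18 without PUVA 3D replicate 2. PUVA 7D minus control was 0.35 ± 0.17 for the transglutaminase gene Tgm3 and 0.34 ± 0.24 for Lor, the gene of the envelope protein loricrin. For Tgm3 it was 0.21 without control replicate 2.

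Genes that regulate epidermal keratin genes, 23 measured transcription factors, receptors and growth factors, had 0 past the threshold in any comparison. At an unadjusted p under 0.05 there were 2 of 23 between the gaps, 2 in PUVA 7D against control and 3 in PUVA 3D against control, beside 9.77%, 5.89% and 9.74% of all genes. Their median log2 difference was 0.032 between PUVA 7D and PUVA 3D, 0.044 between PUVA 7D and control and -0.0094 between PUVA 3D and control. The transcription factor genes Tfap2c and Grhl1 had PUVA 7D minus PUVA 3D differences of 0.27 ± 0.08 and 0.26 ± 0.09 (SE, adjusted p = 0.373 and 0.428), with no overlap of the arrays. Grhl1 had a PUVA 3D minus control difference of -0.30 ± 0.11, and -0.17 without control replicate 1. Hbegf, an EGF receptor ligand, had log2 differences from control of 0.38 ± 0.16 in PUVA 7D and 0.40 ± 0.16 in PUVA 3D. Klf4, a factor of barrier formation, had 0.37 ± 0.15 in PUVA 7D against control.

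Genes that accompany activated keratins in psoriasis-like epidermis, 15 measured, had 0 past the threshold in any comparison, and 3 of 15 in each had an unadjusted p under 0.05, beside 9.77% of all genes between the gaps, 5.89% in PUVA 7D against control and 9.74% in PUVA 3D against control. Their medians were 0.093 between PUVA 7D and PUVA 3D, 0.14 between PUVA 7D and control and 0.11 between PUVA 3D and control. Defb14, a beta-defensin gene, had 5.65, 5.61, 5.58 and 5.50 in PUVA 7D skin and 5.36, 4.79, 4.70 and 4.999 in PUVA 3D skin, with no overlap, against 5.47 and 4.90 in control skin. PUVA 7D minus PUVA 3D was 0.62 ± 0.15 (SE, adjusted p = 0.263) for Defb14 and 0.39 ± 0.08 (adjusted p = 0.230) for Defb4, another beta-defensin gene. Defb4 and the late cornified envelope gene Lce3c had PUVA 7D minus control differences of 0.29 ± 0.10 and 0.38 ± 0.12. Stfa3, a stefin protease inhibitor gene, had a PUVA 3D minus control difference of 0.77 ± 0.30, and 0.49 without control replicate 2. S100a8, a calprotectin subunit gene that is high in psoriasis, had -0.33 ± 0.12 there, and -0.51 and -0.16 without control replicates 2 and 1. Its mean was 3.73 in PUVA 3D and 4.06 in control skin, both below the lower quartiles of the arrays.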

How the data were processed

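Total RNA was labelled with the Affymetrix WT PLUS kit and hybridised to 1 array per sample, per the labels' protocols. The table the authors deposited has 41345 probe sets, and its range led to its values being treated as log2. Which log base, summary method, normalization and genome build were used is not given in the sources used here, and neither is a scan date or batch. Of the probe sets, 23521 had 1 symbol in the platform annotation, 1814 had several and 16010 had none listed. The highest-mean probe set of each gene gave 22180 genes, with no filter.

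A model with 1 mean per group took in the 10 arrays (limma 3.58.1, R 4.3.3, two-sided moderated test, residual degrees of freedom 7 and prior 3.514), with Benjamini-Hochberg adjustment over all genes and a threshold of 0.05. Errors after ± are standard errors of this fit unless called SD, and they pool the spread of all groups. The scripts were tested on simulated data. Correlations had 100000 permutations, or all orders where under 10 arrays were left. Members and lists were chosen with earlier results of these data known. Of other genes, the 2 with the smallest p of each list and comparison are named. Alternatives were filters, probe set rules, normalization, moderation, weights, samples in the fit and each array left out. Arrays were numbered within a group by accession only.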

Additional observations from a re-analysis of the deposited data

Results flagged for a closer look

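Of 18 sets of 4 arrays (9 keratins in PUVA 7D and in PUVA 3D), 2 held an array far from its group, and about 1 in 20 such sets does so by chance. Both were PUVA 3D replicate 2. Its Krt6b value of 5.999 lay below the other PUVA 3D arrays, at 6.88 to 7.01, and within the PUVA 7D range. Its Krt14 value of 11.76 lay below the others, at 11.96 to 11.97. That array also had the lowest means of the PUVA 3D arrays for 4 basal keratinocyte markers outside the keratins (9.79, against 9.94 to 10.00 on the others) and the highest for 6 fibroblast markers (11.99, against 11.36 to 11.74). These were not the only lists at an extreme on that array. It was also the lowest PUVA 3D array for suprabasal, activated keratinocyte, Merkel cell, hair shaft, adipocyte, T cell, endothelial and proliferation markers. For macrophage and dendritic cell markers it was the highest. Krt15, the other basal keratin measured, was lowest on PUVA 3D replicate 1. The part of cell type content in the keratin values was not tested.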

How the results depend on the processing

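No member passed an adjusted p of 0.05 under any alternative, and the lowest adjusted p of a member in any of them was 0.153, for Krt6b in PUVA 3D against control. Of 486 alternative values of the 27 member differences, 225 equalled the reported value, since the setting could not move it (the filter, the probe set rules and the moderation for these genes, only the groups compared, or an array left out that is in neither group). Of the 261 that could move, 235 kept their direction and 26 turned, 24 of them with 1 array left out. The remaining 2 were Krt10 in PUVA 3D against control, at 0.011 with quantile normalization and 0.00097 with centring on array medians. With 1 array left out, the differences whose sign turned ran over these ranges. Ranges were -0.13 to 0.035 for Krt2, -0.13 to 0.56 for Krt6a, -0.0086 to 0.044 for Krt10, -0.14 to 0.11 for Krt15 and -0.027 to 0.32 for Krt16, between PUVA 7D and PUVA 3D. Ranges were -0.022 to 0.29 for Krt1, -0.48 to 0.027 for Krt6a, -0.055 to 0.61 for Krt6b, -0.030 to 0.061 for Krt10, -0.13 to 0.029 for Krt14 and -0.17 to 0.39 for Krt16, between PUVA 7D and control. Ranges were -0.13 to 0.18 for Krt1, -0.047 to 0.044 for Krt10, -0.23 to 0.028 for Krt15 and -0.34 to 0.22 for Krt16, between PUVA 3D and control. Genes past the threshold in PUVA 3D against control numbered 1, 3 with array weights and 1 to 182 with 1 array left out. In PUVA 7D against control they numbered 0, and 0 to 217 with 1 array left out. Both maxima came without control replicate 1, which leaves control replicate 2 alone. In PUVA 7D against PUVA 3D there were 2, 1 without the lowest 30% of genes, 6 with array weights, 1 with only the groups compared, and 0 to 10 with 1 array left out. Leaving out 1 array gave 2 to 5 keratins without overlap in PUVA 3D against control and 1 to 4 in PUVA 7D against control. Between the gaps it gave 0 to 1. The 5 and the 4 came without control replicate 1, where any gene need only clear 1 control to separate. No share of all genes was computed for these settings, so the counts cannot be read as a trait of the keratins. Centring on array medians gave 0 for PUVA 7D against control, where Krt17 then overlapped. These counts were added after the data were seen. With 1 array left out, the median of the 9 keratins ran from -0.020 to 0.13 between the gaps, from -0.12 to 0.029 in PUVA 7D against control and from -0.26 to -0.070 in PUVA 3D against control. The correlation of Krt1 with Krt10 was 0.75 without the 2 farthest arrays (adjusted p = 0.0448, exact) and 0.53 to 0.74 with 1 array left out. That of Krt6a with Krt16 was 0.81 (adjusted p = 0.0219, exact) and 0.51 to 0.77, past the threshold without PUVA 3D replicate 1. That of Krt6b with Krt17 was 0.11 on deviations from the group means and -0.62 to 0.013 with 1 array left out. The causes were not tested. A lone control takes its spread from the PUVA arrays. The planned correlation of Krt5 with Krt14 was not run, since Krt5 was not measured alone. No paired analysis was possible because the labels give no numbers that match arrays across groups.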
